A study of Mus musculus with 20 samples.

Results

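Of 32378 cytosines listed across the 5 mouse tissues, 244 (0.754%), in 222 genes, met a rule for recurrent 5-methylcytosine (m5C) signal in heart only. The rule judged only libraries with at least 20 reads at the site. In bisulfite sequencing of RNA (BS-seq), an ordinary cytosine is converted and read as T, and the fraction of covering reads that still show C is the m5C level. A library was called positive at a site with at least 20 covering reads, at least 3 unconverted reads and a level of at least 0.1. The members were the sites positive in at least 2 of the 4 heart libraries and in none of the other 16. A library with under 20 reads could not be positive whatever its level. At Golga3, such a WT library of another tissue reached 0.9. The heart levels, the low levels elsewhere and the contrast between them therefore chose the sites, and they are described here without a test.

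The study compared wild-type (WT) mice with Nsun6 knockout (KO) mice, which were made with CRISPR/Cas9 by deleting exons 3 and 4 of Nsun6 in C57BL/6J eggs. Tissues came from untreated 8-week-old females, and each of heart, kidney, liver, spleen and small intestine was represented by 2 WT and 2 KO libraries, 20 in all. The deletion was constitutive, so all KO tissues carried it, and poly(A)-captured RNA of bulk tissue was converted. Whether paired libraries stem from different mice is not stated in the labels, and the p-values below measure no more than the spread between these libraries. The deletion itself was not checked here.

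m5C in mRNA is deposited mainly by the methyltransferases Nsun2 and Nsun6, members of the NOL1/NOP2/SUN family. Nsun6 acts on cytosines within the motif CTCCA (the first letter is the modified cytosine), often near stop codons, whereas Nsun2 targets are typically followed by G-rich sequence such as CNGGG. The heart depends on sarcomeres, which are the contractile units of cardiomyocytes, and on a dense population of mitochondria that oxidize fatty acids and carbohydrate.

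The following windows of 21 bases (GRCm38/mm10, in the direction of the transcript) show the kinds of site the results turn on. They have the site as the 11th base, in capitals with the other letters of its motif where it lies in one. The first group has CTCCA and holds the 4 sites called lower in KO, with the window of Selenok-ps5 beside that of Selenok because the letters are the same.
Myl4, chr11:104585755-104585775, plus strand: aagcacgtttCTCCAgggtga
Selenok, chr14:29973413-29973433, plus strand: cccagccctcCTCCAatggct
Selenok-ps5, chr13:62125971-62125991, plus strand: cccagccctcCTCCAatggct
Phyh, chr2:4928731-4928751, plus strand: atcaacaagcCTCCAgatgtt
3110040N11Rik, chr7:81783082-81783102, minus strand: gcctctacaaCTCCAgaggag

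The second group has CNGGG, in genes of the heart muscle or with a high level.
Des, chr1:75367193-75367213, plus strand: tgcccaacccCAGGGaacccc
Atp2a2, chr5:122459543-122459563, minus strand: tgccactgcgCTGGGgttcaa
Corin, chr5:72353941-72353961, minus strand: agaaggagaaCAGGGatgcct
Dpp8, chr9:65074521-65074541, plus strand: tgatagacaaCAGGGgatcct

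The third group has neither motif and holds examples of the sites whose levels are described next.
Corin, chr5:72316366-72316386, minus strand: cctgcccaagCagaagtgaga
Nomo1, chr7:46068755-46068775, plus strand: tgggagacttCaaggcttatg
Cox8b, chr7:140899060-140899080, minus strand: gtggggatctCagccatagtc
Akt2, chr7:27638403-27638423, plus strand: ccactagcctCcaagagggtg
Idh3b, chr2:130280947-130280967, minus strand: gtttttgagaCggtgagcaag
Uqcc2, chr17:27122780-27122800, minus strand: gaagaaactgCaggagaagtt
Rps9, chr7:3706693-3706713, plus strand: cctggactctCagaagcacat

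The heart libraries differed in depth and in what they contained. Reads over the listed sites numbered 2190870 in WT 1, 2490772 in WT 2 and 2145116 in KO 1 but 1230665 in KO 2, and the positive sites numbered 3272, 2960, 3996 and 334. Members made up 34.4% of the positive sites of KO 2 and 4.5% to 5.2% of those of the other heart libraries. The next share covers listed sites with 20 reads that were not positive in the library and positive in at most 1 of all 20. At these, 0.280% to 0.311% of heart reads were unconverted, against 0.0634% to 0.141% in the other 16 libraries. Of 10 cardiomyocyte markers, 4 (Myh6, Myl2, Pln and Ryr2) had listed sites, and these took 0.0273% to 0.162% of heart reads, at most 0.00106% of small intestine reads and none of the liver, spleen or kidney reads. The other 6 were not analysed here. Library KO 2 also held kidney transcripts: the sites in Kap and Umod, which mark proximal and distal kidney tubule, had 767 and 372 reads there and no listed value in the other heart libraries, where values under 10 reads are not given. Kidney markers together took 0.0942% of the reads of KO 2 and 0.252% to 0.518% of the kidney reads. Without KO 2 the rule kept 205 of the 244 sites.

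Applied in the same way to each other tissue, the rule gave 12 sites for small intestine, 25 for liver, 37 for spleen and 17 for kidney. Of the heart sites, 40 were positive in all 4 libraries, against 2 in small intestine, 3 in liver and 0 in spleen and kidney. A further 45 heart sites were positive in 3 libraries and 159 in 2. The pair WT 1 and KO 1 alone accounted for 52 sites, WT 2 and KO 1 for 37 and WT 1 and WT 2 for 31. The 4 libraries had unequal numbers of positive sites to share, and heart was the tissue with 3 libraries of 2960 or more positive sites.

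**Figure D1:**
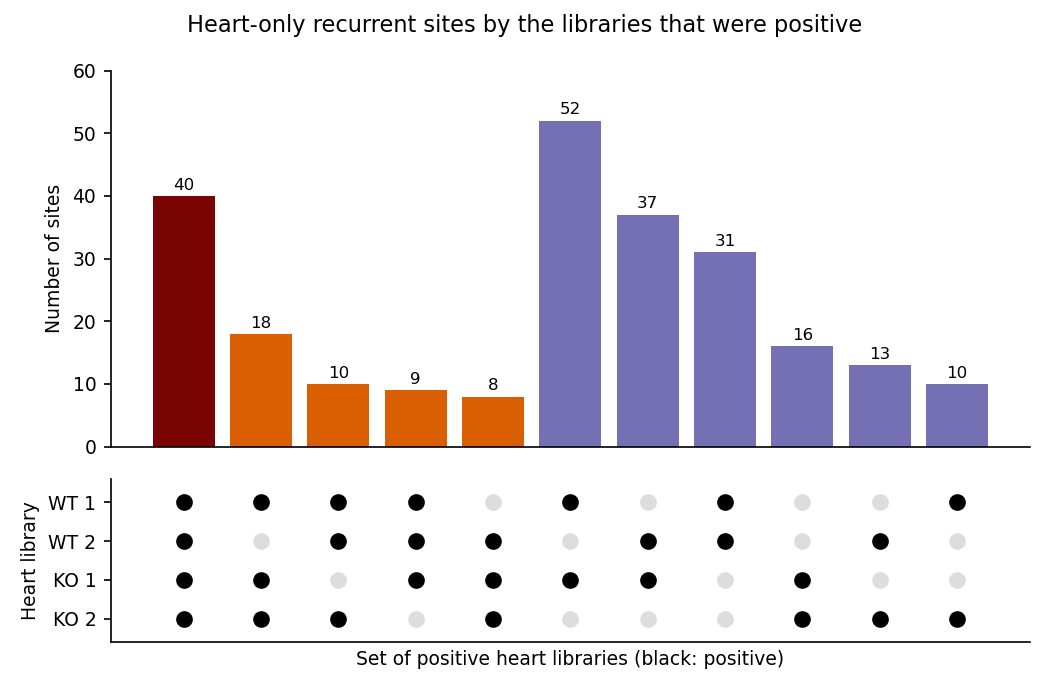
Number of heart-only recurrent sites (vertical axis) for each set of positive heart libraries (black dots under each bar). Dark red marks sites positive in all 4 libraries (40), orange in 3 (45 over 4 sets) and violet in 2 (159 over 6 sets), where sets without KO 2 are the largest.

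The number of positive libraries went with depth. Sites positive in all 4 libraries had a median of 1153.5 heart reads, those in 3 had 421 and those in 2 had 235. At 89 members at least 1 heart library with 20 or more reads had no unconverted read at all, and 84 of these were among the 159 sites positive in 2 libraries, 5 among the 45 in 3 and 0 among the 40 in 4.

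**Figure D2:**
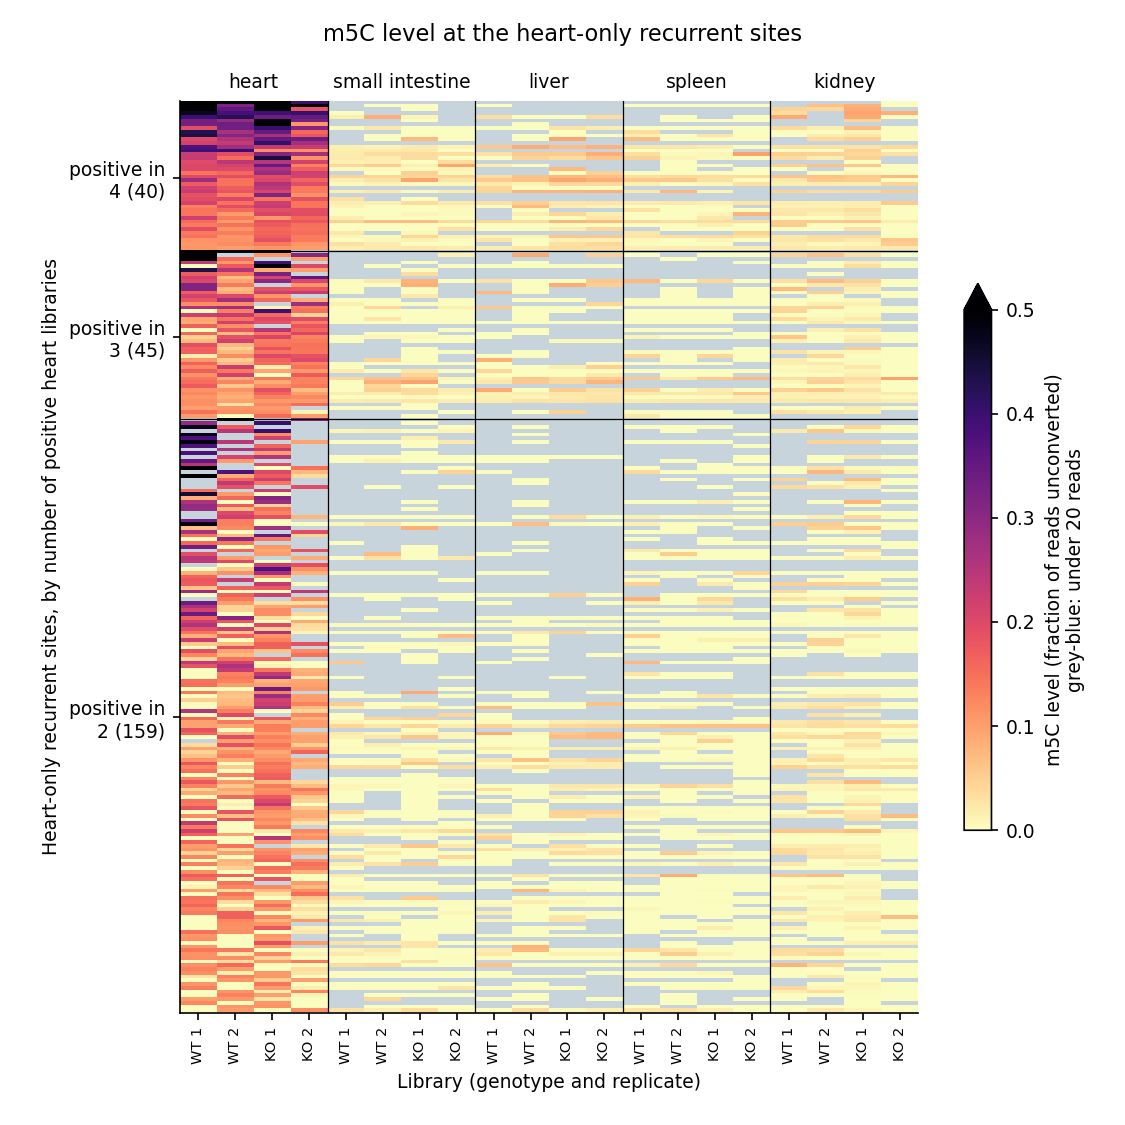
The m5C level (colour, fraction of reads unconverted, capped at 0.5) of each of the 244 sites (rows) in each of the 20 libraries (columns, in blocks of 4 per tissue). Rows are grouped by the number of positive heart libraries and ordered by mean heart level, and grey-blue cells had under 20 reads. The upper block of 40 rows is dark in all 4 heart columns, whereas rows of the lower block mix levels above 0.1 with levels of 0.

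Among the 168 members with 20 reads in all 4 heart libraries, the mean heart level ran from 0.0551 to 0.617 with a median of 0.118. It was 0.2 or more at 25 sites, 0.3 or more at 9 and 0.5 or more at 2. Each library's median level over the members it read was 0.146 in WT 1, 0.119 in WT 2, 0.143 in KO 1 and 0.109 in KO 2. With reads pooled over members the levels were 0.162, 0.152, 0.182 and 0.159. The sites just inside the rule were those in Tmem134, Ehd1 and Tnxb, whose second positive library was at 0.1 exactly. Just outside it were Rsph3b, Tle5 and Smim7, with a second level of 0.0992, 0.0984 and 0.0984. On the other side of the rule, Tcea3, Hnrnph1 and Idh3b reached 0.0974, 0.0962 and 0.0958 in a library of another tissue and were kept. Selenok-ps8, Ankrd11 and Tmem250-ps reached 0.101, 0.102 and 0.103 in 1 such library and were left out.

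The highest level belonged to Corin, the cardiac serine protease that activates the natriuretic peptides. Its site in coding exon 18 of 22 was at 0.702 in WT 1, 0.633 in WT 2, 0.736 in KO 1 and 0.398 in KO 2, from 352, 294, 488 and 88 reads. The other tissues gave 20 reads in all, all in kidney and all converted, which allows a level of up to 0.15, so their level at this site was not measured. A second Corin site, the CNGGG cytosine in exon 10, was at 0.183 and 0.261 in the WT libraries and at 0.0133 and 0 in the KO libraries, and its adjusted p of 0.883 in edgeR's quasi-likelihood test, explained with the genotype comparison below, did not pass.

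Nomo1, a component of an endoplasmic reticulum membrane protein complex, had levels of 0.721 and 0.316 in WT and 0.595 and 0.600 in KO at a coding site. Elsewhere 12 of its 545 reads were unconverted, and kidney was highest at 0.0545. Rsph3a, a radial spoke protein of cilia, was at 0.676, 0.356, 0.724 and 0.182 in WT 1, WT 2, KO 1 and KO 2, from 220 reads in all. The libraries of 1 genotype thus differed widely at this site, and its 31-base window occurs at 2 places in the genome.

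Akt2, the insulin-responsive kinase, had a site in the 3′ UTR at 0.399 and 0.424 in WT and at 0.336 and 0.350 in KO. Small intestine, liver and kidney had levels of 0.0225, 0.0198 and 0.0719 and spleen had no unconverted read in 201. The window of this Akt2 site occurs at 2 places once C is read as T. A further Akt2 site, in the 5′ UTR, had heart levels of 0.0435 to 0.161 and no unconverted read in 743 elsewhere, which allows a level of up to 0.00404.

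Klhdc1, a substrate adaptor of a ubiquitin ligase, was at 0.330, 0.286, 0.513 and 0.330 in its 3′ UTR, and Lrtm1, a transmembrane protein with leucine-rich repeats, at 0.329, 0.335, 0.50 and 0.108 in coding sequence. Both genes had a second member and few reads elsewhere, with 1 of 228 unconverted at Klhdc1 and 0 of 33 at Lrtm1.

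Uqcc2, an assembly factor of complex III, was at 0.376, 0.276, 0.233 and 0.229 in heart over 18153 reads, in the order WT, WT, KO, KO, and between 0.0162 in small intestine and 0.0740 in liver. Both WT libraries lay above both KO libraries, and the difference did not pass the test (adjusted p = 0.971, edgeR). Dpp8, a dipeptidyl peptidase gene, was at 0.441, 0.309, 0.266 and 0.179 in coding sequence over 274 heart reads, and 14 of 1269 reads elsewhere were unconverted. Spg7, which codes for a subunit of the mitochondrial m-AAA protease, was at 0.194, 0.333, 0.403 and 0.310, with 47 of 1913 unconverted elsewhere, the highest tissue being kidney at 0.0506. Tpt1, the translationally controlled tumour protein gene, was at 0.430, 0.269, 0.348 and 0.158 in its 5′ UTR, against 3 of 538 elsewhere. The WT and KO levels overlapped at Spg7 and Tpt1, and at Dpp8 both WT libraries were above both KO libraries, with an adjusted p of 0.991 (edgeR).

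Genes of mitochondrial energy metabolism were among the best covered of the members. The 4 mitochondrial lists (respiratory chain and ATP synthase, citrate cycle and pyruvate, fatty acid uptake and oxidation, and carriers, channels and inner membrane) held 239 listed sites, of which 15 (6.28%) in 13 genes were members, beside 0.754% of all listed sites. Of the 15, 8 were positive in all 4 heart libraries. No set test was run, and a site in a gene with many heart reads had more chance to qualify. Among the sites tested for genotype below, the contrast was smaller. Members were 5 of 14, 3 of 11, 3 of 7 and 2 of 10 in these lists, in the order given, and 168 of all 746.

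Cox8b, a subunit of cytochrome c oxidase that heart and skeletal muscle use, had the highest of these levels at 0.472 and 0.387 in WT and 0.390 and 0.406 in KO. They rested on 7469, 22415, 4522 and 11177 reads, so counting error was small beside the differences between libraries. Elsewhere 41 of 528 reads were unconverted, with 0 of 51 in small intestine, 37 of 463 in kidney and 4 of 14 in liver, where no library had the 20 reads needed to be positive.

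Idh3b, a subunit of the citrate-cycle isocitrate dehydrogenase, had a pair of members in coding sequence. The first, in exon 9, was at 0.229, 0.190, 0.312 and 0.274 in WT 1, WT 2, KO 1 and KO 2, and the second, in exon 3, at 0.109, 0.0827, 0.132 and 0.123. Pooled by tissue, levels elsewhere were 0.0326 to 0.0555 at the first site and 0.00285 to 0.0151 at the second.

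Sdhd, an anchor of complex II, was at 0.229, 0.183, 0.208 and 0.138 in its 3′ UTR and had 0.0757 in liver. Atp5b, the catalytic beta subunit of ATP synthase, was near the limit of the rule with levels of 0.0818 to 0.124, and Atp5j2 was also a member.

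Further mitochondrial members lay in genes of fatty acid oxidation, the cristae and the outer membrane. Hadha, of the trifunctional enzyme of fatty acid oxidation, was at 0.133, 0.194, 0.231 and 0.144 in the 3′ UTR. Immt, which organizes the cristae, was at 0.144, 0.155, 0.190 and 0.190. Vdac1, the outer-membrane channel, had a coding site at 0.109, 0.120, 0.140 and 0.111. Decr1, Acadm, Pdhb and the second Vdac1 site in the 3′ UTR were positive in 2 or 3 libraries and at 0 or nearly so in another.

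Genes of the contractile apparatus held fewer members, from fewer listed sites. Of 83 listed sites in sarcomere and contractile genes, 5 (6.02%) were members, in Des, Myh6, Myl4 and Myom2. That share is close to the share of the mitochondrial lists, and 5 of the 17 such sites tested for genotype were members. Des encodes desmin, the intermediate filament of muscle, and both of its sites lie in the 3′ UTR. The better covered was at 0.202, 0.200, 0.261 and 0.168 in heart, with 29 unconverted reads of 8357 elsewhere. Small intestine, whose smooth muscle also makes desmin, had 7885 reads at this site and a level of 0.00342. The second Des site was at 0.198, 0.243, 0.244 and 0.214 in heart and at 0.0152 in small intestine over 1246 reads. At Des the contrast between tissues was thus measured on deep coverage on both sides.

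Myh6, the fast adult cardiac myosin heavy chain, was at 0.148 and 0.130 in WT and 0.0804 and 0.0918 in KO, with no value elsewhere. Myom2, an M-band protein, was at 0.0973 to 0.151. Of the 73 listed sites of calcium handling and excitation, 1 was a member: Atp2a2, the calcium pump of the sarcoplasmic reticulum, at 0.0928 and 0.145 in WT and 0.201 and 0.196 in KO. Both KO libraries lay above both WT libraries there, with an adjusted p of 0.887 (edgeR).

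Cytosolic ribosomal protein genes held 7 members, 6.31% of their listed sites, and 3 of them were positive in all 4 libraries. Rps9 was at 0.198, 0.195, 0.194 and 0.216 over 41505 heart reads. Its level elsewhere was well measured too, between 0.0362 in spleen and 0.0618 in kidney, so the heart exceeded the other tissues without being the only one to carry signal. Rplp0 was at 0.213, 0.147, 0.221 and 0.143 over 20603 heart reads. The pair of Rps14 sites and that of Rps21 stayed between 0.0919 and 0.161 on 43629 or more heart reads each. The windows of Rps14, Rps21, Rplp0 and Rps2 occur at 2 to 57 places in the genome with C read as T, so reads of processed pseudogenes could not be told from theirs. No member lay among the 79 listed sites of translation factors. The lists of glycolysis and creatine (Pfkm), of focal adhesion, junction and matrix (Dsp) and of chaperones and protein turnover (Hspb7) held 1 each. The lists do not hold every gene of their kind, and the members Pfkp and Fbln2, described below, lie outside them.

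**Figure D3:**
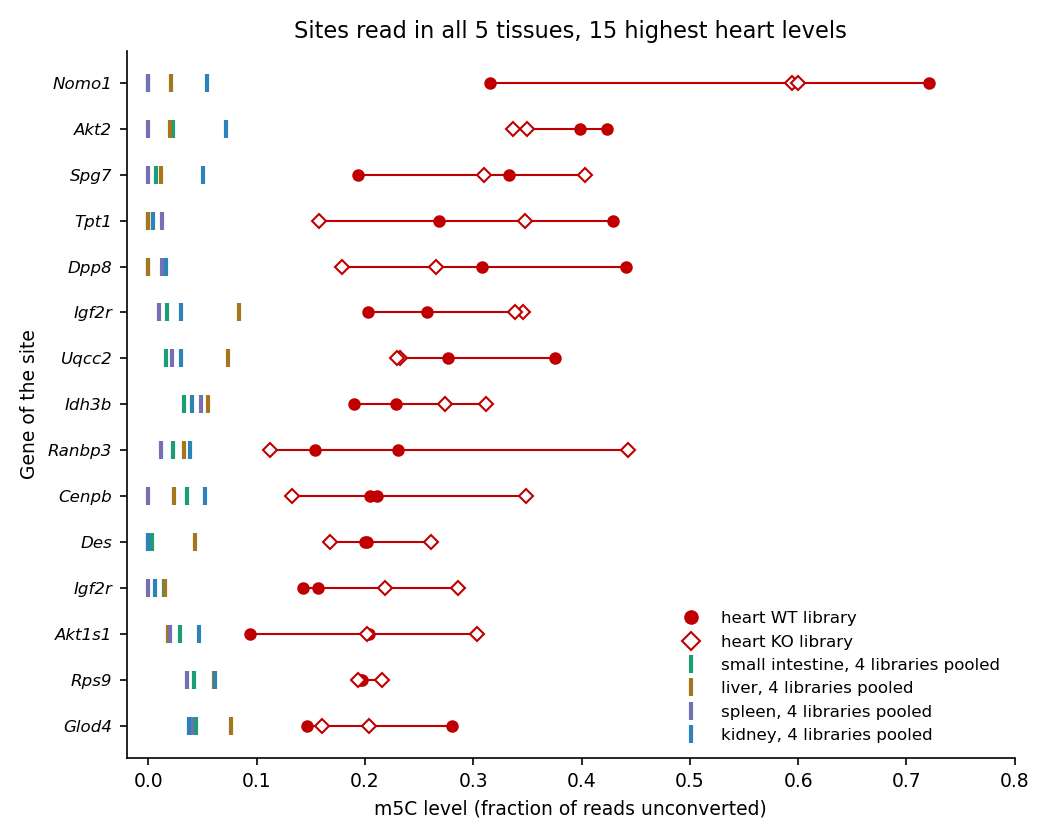
The m5C level (horizontal axis, fraction of reads unconverted) at the 15 sites of highest mean heart level among those with 20 reads in at least 1 library of each other tissue. Red circles are the 2 heart WT libraries, open diamonds the 2 heart KO libraries, a red line spans the 4, and coloured ticks pool the 4 libraries of each other tissue. The ticks stay under 0.1 at every site shown, and the ranges of filled and open symbols overlap at most of them.

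How far these sites are particular to heart was limited by expression at some and measured at others. No library of another tissue had 20 reads at 23 members, such as the second Corin site, and at these the absence elsewhere is an absence of reads. In contrast, 134 members had 20 reads in at least 1 library of each other tissue, and 41 had 20 reads in all 16 other libraries. For the 134, the median level with reads pooled was 0.111 in heart and 0.010 elsewhere. At 10 of them not a single read was unconverted elsewhere, and at 67 the pooled level elsewhere was under 0.01. Of the 221 members with 20 reads in another library, 70 reached 0.05 in at least 1 such library, which stayed below the 0.1 of the rule.

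Levels at sites shared between tissues were compared in the same way. Of the 608 sites recurrent in 2 or more tissues, 421 included heart, and 81 of the 608 had 20 reads in all 20 libraries. A heart library was among the positive ones at 73 of the 81, so that their heart levels were in part fixed by the choice. Of the sites with this coverage, 44 were positive in 2 or more tissues without counting heart. At these 44 the library medians were 0.127 to 0.200 in heart, 0.0897 to 0.106 in liver, 0.0617 to 0.115 in kidney, 0.0684 to 0.0756 in small intestine and 0.0510 to 0.103 in spleen. The heart libraries did not overlap those of another tissue in this median. Heart had the highest tissue mean at 22 of the 44 (50%) and liver at 9. At the 8 sites with no positive heart library the medians were 0 to 0.0255 in heart and up to 0.0502 in kidney, levels that the choice had likewise fixed in part. At the 41 members with the same coverage, the medians were 0.103 to 0.132 in heart and 0 to 0.0246 elsewhere, a contrast that the rule had fixed. The higher unconverted share of heart at sites that were not positive, given above, moved in the same direction, and its part in these levels was not tested.

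The second comparison asked whether the heart sites depended on Nsun6. Genotype was not used by the rule, which treats the 4 heart libraries alike. The sites with 20 reads in all 4 heart libraries and 2 or more unconverted reads in at least 2 of them were tested on their unconverted and converted counts with edgeR's quasi-likelihood test, and p-values were adjusted by Benjamini-Hochberg over all 746 sites. All 168 members with this coverage passed the filter and 76 did not have the reads. In KO heart, 4 members fell and 0 rose, against 11 of 746 (1.47%) lower and 0 (0%) higher over all tested sites. At an unadjusted p under 0.05, 6 members were lower and 3 higher (4.16% lower and 2.55% higher over all sites). In simulated data the test called 70 of 100 lost sites and 4 of 100 raised sites. The lost sites there were set to drop nearly all of their level, and the raised ones to rise by a much smaller factor. These rates therefore do not compare the directions. The count of 0 higher says little about rises of the simulated size.

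The 4 that fell were in Myl4, Selenok, Phyh and 3110040N11Rik, and all 4 lie in CTCCA. The other 163 tested members without this motif and Selenok-ps5 with it had adjusted p-values of 0.676 or more (edgeR). Over all 746 sites, 22 lay in CTCCA and 8 of these were lower in KO. limma on the logit of the levels, fitted to the same sites, called 0 in either direction (0%), with 0.216 as the smallest adjusted p of a member. At an unadjusted p under 0.05 it had 11 members lower and 3 higher, against 5.9% and 2.82% of all sites. Leaving out KO 1 or KO 2 kept Myl4 and Selenok past the threshold but not Phyh, whose adjusted p was then 0.274 or 0.876, or 3110040N11Rik, at 0.274 or 0.0636 (edgeR). Without WT 1 or WT 2 none of the 4 could be tested, since the filter asks for unconverted reads in at least 2 libraries.

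Myl4, the essential light chain of atrial myosin, carries its site in the 3′ UTR, 13 bases after the last coding base. The level was 0.241 in WT 1 and 0.218 in WT 2, from 7185 and 7500 reads, and 0 in KO 1 and KO 2, from 837 and 329 reads. With no unconverted read among 1166, the KO limit (3 reads over the group) was 89.1-fold under the pooled WT level, with an adjusted p of 4.43e-06 (edgeR). Covering reads were also fewer in KO. Of 8 atrial markers, 4 had listed sites, and they took 0.340% and 0.311% of reads in WT against 0.0469% and 0.0292% in KO, nearly all of it from Myl4 itself. The same list took 0.0468% to 0.163% of liver reads. The sites of Dkk3, Stard10 and Tbx5 had 11 to 175 reads where given. Stard10 had 22 and 35 reads in WT against 34 and 30 in KO at its 3′ UTR site. Its coding site had 175 and 132 in WT against 113 in KO 1. Dkk3 had 27 and 37 in WT against 12 in KO 1, and Tbx5 had 29 and 12 against 11. Cardiomyocyte markers moved the other way, at 0.0273% and 0.0348% in WT and 0.134% and 0.162% in KO. In bulk tissue fewer cells of a type and less RNA per cell cannot be told apart, and the part of this difference between the hearts in the m5C levels was not tested.

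Selenok encodes an endoplasmic reticulum selenoprotein, and its site lies in coding exon 4 of 5, 25 bases before the last coding base. The WT libraries gave 0.141 and 0.140 over 1145 and 2153 reads, whereas neither KO library had an unconverted read among 992 and 1027. The KO limit, formed in the same way, was 94.7-fold under the pooled WT level (adjusted p of 1.09e-05, edgeR). The same 21 bases stand in the processed pseudogene Selenok-ps5, whose site was at 0.170 and 0.162 in WT and 0 in KO, the KO libraries having 42 and 93 reads, with an adjusted p of 0.676 at this depth. The 31-base window occurs at 7 places in the genome, so the reads of the gene and its copies cannot be separated and the pair is not independent evidence.

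Phyh, the peroxisomal enzyme that starts the breakdown of phytanic acid, was at 0.479 and 0.134 in WT and 0 in both KO libraries at a site in coding exon 5 of 9. The WT libraries differed from each other more than the lower of them differed from KO. The KO limit over 416 reads was 41-fold under the pooled WT level of 0.295, which lies well above WT 2 (adjusted p of 0.0353, edgeR). 3110040N11Rik, a gene without an established name, was at 0.116 and 0.153 in WT, and 0 and 0.00457 in KO, 46 bases before its last coding base (adjusted p of 0.0211, edgeR). A single read of 523 was unconverted in KO, a share with an exact 95% interval of 4.84e-05 to 0.0106 that covers counting error only.

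The CTCCA members were low rather than absent in the other WT tissues. The rule had set the upper limit of these levels but had not used the order of the genotypes. At Selenok, 276 of 8869 reads (3.11%) were unconverted in the 8 WT libraries of other tissues and 1 of 8619 (0.0116%) in the 8 KO libraries. The WT levels there ran from 0.0106 to 0.0733 and the KO levels from 0 to 0.000917, so the genotypes did not overlap. Among 2357 listed sites with 20 reads in all 16 of these libraries, 1 (0.0424%) had every WT library above every KO library, and it was this one. A site could meet this only with an unconverted read in each of the 8 WT libraries, so depth and level also decided it.

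The remaining CTCCA members had the same order outside heart with reads pooled. At each of them at least 1 WT library had no unconverted read, so single libraries of the genotypes overlapped. Phyh had 157 of 3017 WT reads (5.20%) unconverted and 2 of 3386 in KO, with liver WT 2 highest at 0.0688. 3110040N11Rik had 98 of 2658 (3.69%) in WT and 0 of 4372 in KO. Myl4, little expressed elsewhere, had 7 of 300 in WT and 0 of 391 in KO. Selenok-ps5 had 26 of 851 in WT and 0 of 399 in KO. All 5 reached 0.05 in at least 1 WT library of another tissue and so were heart-only by the 0.1 limit alone. Among the 204 members without CTCCA that both genotypes read elsewhere, the median was 0.716% in WT and 0.727% in KO, with WT higher at 75 and KO higher at 97.

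The differences between genotypes were set beside those between the libraries of 1 genotype. Over the 168 tested members the median difference between KO and WT levels was 0.0110, beside 0.00245 over all 746 sites. The size of the difference had a median of 0.0496, against 0.0775 between the WT libraries and 0.0570 between the KO libraries. It was no larger than the wider of these spreads at 121 of the 168. A difference between means of 2 libraries tends to be smaller than one between single libraries. These values therefore do not show whether genotype had an effect, and the same share over all 746 sites was not computed. Both WT libraries lay above both KO libraries at 30 members (17.9%, against 18.1% over all tested sites) and both KO libraries above both WT libraries at 35 (20.8%, against 18.5%). At the 24 tested members with CNGGG, the median level was 0.119 in WT and 0.134 in KO and 0 passed the test. Among the 40 sites positive in all 4 libraries, the smallest adjusted p was 0.971 (edgeR). Both KO libraries had to reach a level of 0.1 there, so a site lost in KO could not be among them.

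**Figure D4:**
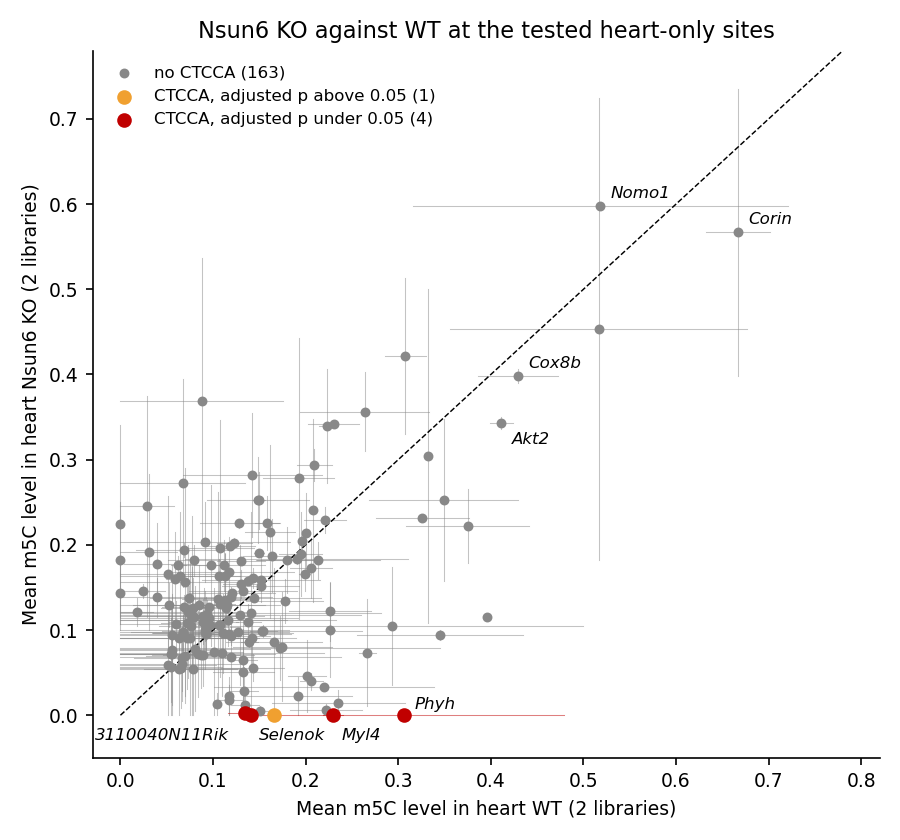
Mean m5C level in the 2 heart Nsun6 KO libraries (vertical axis) against that in the 2 WT libraries (horizontal axis) for the 168 tested heart-only sites. Thin lines span the 2 libraries of each genotype and the dashed line marks equal levels. The 4 sites with an adjusted p under 0.05 (red) and Selenok-ps5 (orange) lie on the bottom edge, while the 163 sites without CTCCA (grey) scatter about the line.

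Several members had large differences that did not pass. Pfkp, a phosphofructokinase subunit of glycolysis, was at 0.391 and 0.400 in WT and 0.116 and 0.115 in KO. Fbln2, an extracellular matrix protein, was at 0.435 and 0.255 against 0.0887 and 0.10. Gpr180 was at 0.163 and 0.308 against 0.0294 and 0. Decr1, of fatty acid oxidation, was at 0.257 and 0.276 against 0.0109 and 0.136. All of these, with the second Corin site, had both WT libraries above both KO libraries and adjusted p-values of 0.883 or more (edgeR), on 158 to 623 heart reads each.

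In the other direction, the second Rsph3a site was at 0 in both WT libraries and 0.341 and 0.107 in KO. Art3, an ADP-ribosyltransferase-like surface protein, was at 0 and 0.0579 against 0.375 and 0.115, and Fbxo21, of a ubiquitin ligase, at 0 in WT against 0.250 and 0.115. Srebf2, which controls cholesterol synthesis, was at 0 and 0.135 against 0.395 and 0.15. Adjusted p-values of these 4 were 0.676 or more. Requiring instead 0 unconverted reads in both KO libraries and, in both WT libraries, 2 reads and a mean level of 0.05 gave 4 members among 37 sites (0.467% of 7920). The opposite requirement gave 3 members among 21 sites (0.265%).

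The sequence around the members was rich in guanine downstream of the cytosine. Counting from the site, G stood at positions +2, +3 and +4 in 64.3%, 60.7% and 53.3% of members, as against 35.9%, 33% and 33.1% of all listed sites. At position -1 the order was reversed, with 21.3% of members and 31.1% of listed sites. The sites recurrent in several tissues had 55.6%, 56.1% and 49.7% at the 3 downstream bases. Sites positive in 1 heart library and nowhere else, 9150 in number, had 37.4%, 35% and 35.4%, close to the list as a whole.

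**Figure D5:**
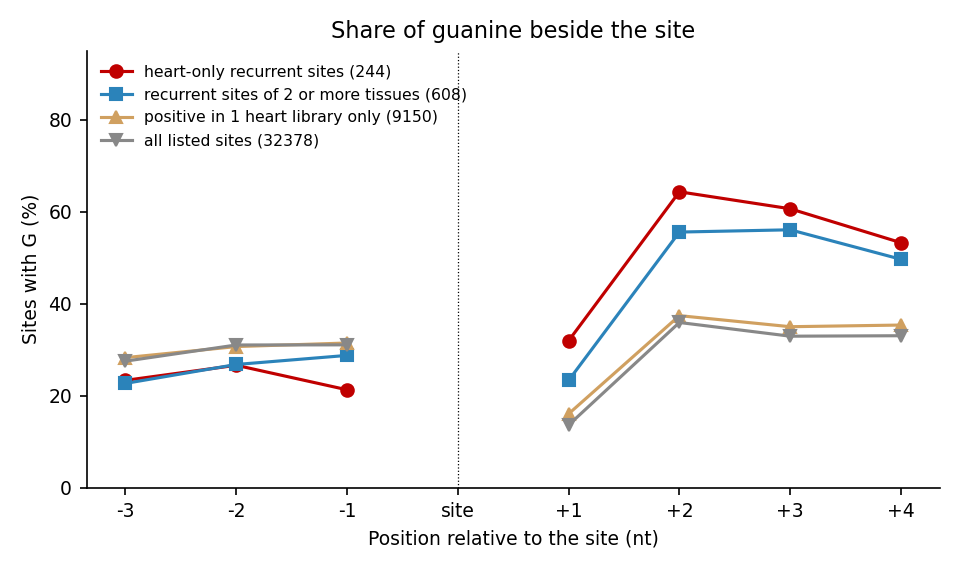
Percent of sites with G (vertical axis) at each base from 3 before to 4 after the site (horizontal axis) in 4 sets of sites. The heart-only sites (red) and the sites recurrent in several tissues (blue) lie at 49.7% or more at +2 to +4, and the sites positive in 1 heart library (tan) reach at most 37.4% there, close to all listed sites (grey).

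The motif CNGGG stood at 42 members (17.2%), against 20.1% of the sites shared between tissues and 4.45% of the list. Its shorter form CNGG stood at 94 members (38.5%), 35.5% of the shared sites and 13.4% of the list. Both were read from the site on the strand of the transcript, CNGG includes CNGGG, and neither can coincide with CTCCA. The Nsun6 motif stood at 5 members (2.05%), 2.14% of the shared sites and 0.933% of the list. These 5 were all among the sites positive in WT 1 and WT 2 alone. Among the windows printed above, that of Uqcc2 has CNGG without CNGGG.

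Members lay mostly in coding sequence. There were 149 (61.1%) in coding exons, 65 (26.6%) in 3′ UTRs, 10 in 5′ UTRs and 20 in exons of noncoding transcripts, and none outside gene models. All listed sites had 50.8%, 23.7%, 5.53% and 5.73% in these classes and 14.2% outside gene models, and the sites shared between tissues had 36.2% in coding sequence and 38.2% in 3′ UTRs. Within 200 bases of the end of the coding sequence stood 34 members (13.9%), against 11.9% of the list and 15.1% of the shared sites, and 10 of the 40 sites positive in all 4 libraries (25%). Besides Selenok, 3110040N11Rik and Myl4, these include Vdac1, Cox8b and Uqcc2 in coding sequence and Hadha in the 3′ UTR.

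The members were scattered over genes, with 21 genes holding 2 or more. Afg3l1, a mitochondrial protease subunit gene, had 3 sites in coding exons 8, 12 and 15, and Idh3b, Rps14, Des, Use1, Egln1, Akt2, Corin, Vdac1 and 2610507B11Rik had 2 each. Neighbouring cytosines were both members in Igf2r, Adcy5 and Abcb8. In Igf2r, the receptor that carries lysosomal enzymes, the levels were 0.203, 0.258, 0.346 and 0.339 at the first cytosine in transcript order and 0.143, 0.156, 0.286 and 0.219 at the next. In Adcy5, the main cardiac adenylyl cyclase, they were 0.375, 0.357 and 0.217 and then 0.293, 0.429 and 0.407 in WT 1, WT 2 and KO 1. The WT 2 levels rested on 14 reads each, under the 20 needed to be positive. Such pairs share their reads and count as members separately. In Egln1, the oxygen-sensing prolyl hydroxylase, a coding site was at 0.156, 0.0673, 0.146 and 0.206 over 3389 heart reads with no unconverted read in 904 elsewhere.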

How the data were processed

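Poly(A) RNA of 5 tissues from WT and Nsun6 KO mice was bisulfite-converted, made into stranded libraries and sequenced (the sources differ on the length of the first conversion step). The authors counted, per listed cytosine and library, the covering reads and the unconverted reads with an RNA-m5C pipeline (build mm10 per the submitters' notes, with aligner and versions not given in the sources used here), and deposited these counts per library, replicates not pooled, with a mark of the sites they passed. Listed values start at 10 reads. The 80 columns of levels, p-values, signal and conversion rates were not used.

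Sites were annotated with GENCODE M21, and windows were read from GRCm38.p6. m5C levels were computed from the counts. Positive libraries, members and lists follow the definitions in the results, and the members and gene lists were chosen with earlier results of these data known. Named members were the 10 highest in heart, those past the test, the 5 largest other differences each way, the 5 best covered, up to 10 genes with several sites, up to 4 of each of 12 lists, the 10 highest among sites read in all tissues, and the neighbours of the rule's limits, of which a few are not reported here.

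KO was compared with WT in the 4 heart libraries with edgeR 4.0.16 glmQLFit and glmQLFTest in R 4.3.3 (an intercept per library, a methylation term and its KO change), two-sided, with Benjamini-Hochberg adjustment over all sites tested. The procedure was tested on simulated data. Alternatives were limma 3.58.1, a likelihood ratio test, a replicate block, other minima, other filters and each library left out. Limits for counts of 0 take 3 reads over the group, and intervals cover counting error only, since reads had no molecular identifiers.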

Additional observations from a re-analysis of the deposited data

How the results depend on the processing

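The number of heart-only recurrent sites was 244 as reported and between 169 and 352 at a coverage of 30 or 50, 5 unconverted reads, a level of 0.05, the authors' own pass marks (244 sites, all shared), levels under 0.05 in every other library, or without the 24 sites in repeated windows (220, an alternative chosen after seeing the data). It was 135 at a level of 0.15, 85 with 3 positive heart libraries, 134 with 20 reads in at least 1 library of each other tissue and 41 with 20 reads in all 16 other libraries. The sets were not all nested. Of the 244, 182 were among the 352 at a level of 0.05, and 150 among the 169 at a coverage of 50. At a level of 0.15, 104 of the 135 were shared. Leaving out 1 heart library gave 139 (without KO 1) to 205 (without KO 2), and 151 without WT 1. CTCCA stood at 0% of the sites with 3 positive heart libraries and at 0% of those with levels under 0.05 in every other library. With 1 heart library left out it stood at 0% to 3.6%. The 0% with 3 positive libraries and the 0% without WT 1 or WT 2 followed by construction. Its 5 sites were positive in WT 1 and WT 2 alone. With 20 reads in all 16 other libraries the shares were 4.88% for CTCCA, 9.76% for CNGGG, 78% for coding sequence and 19.5% for 3′ UTR, of 41 sites. The other shares stayed within the 95% Wilson interval of the main value.

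In KO heart, 11 of all 746 sites and 4 members were lower, and 0 were higher. limma gave 0 lower sites and 0 lower members (44 lower and 21 higher of all sites at an unadjusted p under 0.05). A coverage of 50 gave 2 lower sites, both members, and dropping the filter on unconverted reads gave 3 lower sites, 2 of them members, among 7920 tested. The study's criteria gave 1 higher site, which was no member. Leaving out 1 library gave 0 to 3 lower sites, 0 to 2 higher sites and 0 to 2 lower members, with 0 lower members without WT 1 or WT 2. The replicate block gave 12 lower sites, 4 lower members and 2 higher sites. It is not treated as a pairing, because the difference between libraries 1 and 2 in WT and that in KO correlated at -0.06 over the 746 sites, with only 1 such pair of differences. Over the 15 named members with a KO comparison, 13 values under an alternative kept their direction but no longer passed, 0 reversed and the rest kept both direction and side of the threshold. Depth limited Selenok-ps5 and the 76 members without 20 reads in all 4 heart libraries.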
